A study of Mus musculus with 8 samples.

Results

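The 9 genes described here, Dclk1, Trpm5, Pou2f3, Il25, Gfi1b, Alox5, Hpgds, Gnat3 and Avil, are markers of tuft cells, the rare chemosensory cells of the intestinal epithelium. They were chosen by name. Every non-control probe whose RefSeq accession carried one of these symbols was taken, which gave 11 of 39429 probes, 3 of them for Dclk1 and 1 for each other gene. All 9 were among the 21307 genes tested. The mice were C57BL/6J Min/+, which carry the Min allele of Apc in one copy and develop intestinal adenomas, and total RNA was taken from their small intestine. All groups carried Min, and no wild-type group was analysed here. Control mice ate the semisynthetic AIN-93G diet without modification. Western-diet mice ate a version of it that was rich in fat and poor in fibre, vitamin D, calcium and folate, with milk supplying 66.4% of the fat, and rapeseed together with sunflower oil the other 33.6%. The labels name a feeding experiment of 18 months and give no age. Males and females on each diet made 4 groups of 2 one-colour Agilent arrays, each hybridised with RNA from 1 to 3 mice. The labels do not say how many mice stood behind a given array, or whether adenoma was part of the tissue.

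Tuft cells carry the taste-like pathway in which a receptor signals through a G protein such as gustducin to phospholipase C, calcium release and the cation channel Trpm5. The transcription factor Pou2f3 is needed for the lineage to form. Stimulated tuft cells release the cytokine Il25 together with leukotrienes and prostaglandins. Il25 acts on group 2 innate lymphoid cells, whose Il13 in turn drives epithelial progenitors towards more tuft and goblet cells. Because tuft cells are a small share of the epithelium, their transcripts are diluted in RNA of whole intestine, and in such bulk samples fewer tuft cells and less RNA per tuft cell cannot be told apart.

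Pou2f3 belongs to the octamer-binding POU family, so the windows of up to 250 bases before the RefSeq start sites (GRCm38.p6) were read for the octamer ATGCAAAT, its first 7 letters ATGCAAA and the GC box GGGCGG, on both strands. RefSeq promoter entries were at hand for 7 of the 9 genes, with 8 windows in all. The full octamer stood in 1 of the 8 windows, that of Hpgds, and in 1.6% of all 32851 windows. The first 7 letters, which every full octamer also holds, stood in 2 of 8, Hpgds and Avil, and in 4.12% of all. The GC box stood in 2 of 8, Gfi1b and Alox5, and in 32.7% of all. The stretches with octamer letters are given first, with those letters in capitals. They begin 174 bases before the Hpgds start site and 115 and 15 bases before that of Avil, where the more distant match lies on the opposite strand.
Hpgds, chr6:65144886-65144915, minus strand: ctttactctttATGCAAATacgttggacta
Avil, chr10:127000583-127000612, plus strand: gttttcgctgtTTTGCATaggagcagataa
Avil, chr10:127000679-127000708, plus strand: gagaatgtggttatgATGCAAAcacaagca
The windows of Dclk1, Gfi1b and Alox5, whose array patterns resembled each other, follow, with the GC box in capitals. Dclk1 had 2 windows, and neither held any of the 3 motifs. Of the upstream one, the 189 bases outside the RefSeq gene are printed.
Dclk1, chr3:55242114-55242302, plus strand: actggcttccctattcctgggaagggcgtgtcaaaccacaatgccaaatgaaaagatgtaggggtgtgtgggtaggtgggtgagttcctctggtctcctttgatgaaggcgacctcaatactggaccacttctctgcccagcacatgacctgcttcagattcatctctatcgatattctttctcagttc
Gfi1b, chr2:28621983-28622232, minus strand: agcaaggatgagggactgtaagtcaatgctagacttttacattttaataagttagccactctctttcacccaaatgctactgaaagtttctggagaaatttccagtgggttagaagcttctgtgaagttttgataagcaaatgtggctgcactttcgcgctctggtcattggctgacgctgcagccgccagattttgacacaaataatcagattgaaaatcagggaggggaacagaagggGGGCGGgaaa
Alox5, chr6:116461179-116461428, minus strand: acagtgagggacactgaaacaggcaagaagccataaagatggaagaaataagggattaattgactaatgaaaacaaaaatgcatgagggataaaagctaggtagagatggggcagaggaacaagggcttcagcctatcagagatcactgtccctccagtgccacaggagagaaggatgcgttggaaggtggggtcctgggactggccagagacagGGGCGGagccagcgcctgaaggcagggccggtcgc
A match describes letters in a window and no binding was measured.

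Levels are given as log2 of the processed signal minus the array's 75th percentile, so that 0 is the signal exceeded by 25% of the spots of that array, and differences between genes are not read from them, since each probe has its own response. On each array 55.1% to 75.6% of probes were well above background, by the scanner software's own test, with the highest share on Control female 2. The 12 epithelial markers, such as Epcam and Vil1, were all well above background on all 8 arrays, and their summed linear signal, in multiples of the 75th percentile, was 1870 to 2330 on control arrays and 1780 to 2310 on Western arrays. The library labelled Control female 1 had male levels of Y-linked transcripts. Ddx3y was at -0.46 there, at -1.04 to -0.67 on the 4 male arrays and at -7.56 to -6.91 on the other 3 female arrays. The name of that library's deposited file also carries the initials of the Western diet, against its label, so results that use it are given with and without it where it matters.

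Of the 9 markers, 6 were well above background on all 8 arrays: Dclk1, Trpm5, Pou2f3, Gfi1b, Alox5 and Avil. Gnat3 was so on 6 arrays, Hpgds on 3 and Il25 on 2. In taste-like signalling, Trpm5, the calcium-activated cation channel, measured -1.24 and -0.72 in Control males, -1.71 and -0.61 in Control females, -1.34 and -0.50 in Western males, and -0.84 and -1.41 in Western females. The widest gap lay within Control females, and all 4 groups overlapped. Gnat3, the alpha subunit of gustducin, measured -5.24 and -5.06 in Control males, -4.75 and -4.16 in Control females, -5.20 and -3.95 in Western males, and -4.22 and -5.38 in Western females. Control male 2 and Western female 2 were not well above background, and the highest array was Western male 2.

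Dclk1, a doublecortin-like kinase widely used to stain tuft cells, measured -2.49 and -3.04 in Control males, -2.14 and -2.41 in Control females, -3.11 and -1.91 in Western males, and -2.37 and -2.95 in Western females with its brightest probe. Western male 1 was the lowest array and Western male 2 the highest, so 1 group spanned the whole range. Gfi1b, a zinc-finger repressor of transcription, measured -2.87 and -2.66 in Control males, -2.16 and -2.02 in Control females, -2.96 and -1.81 in Western males, and -2.15 and -2.95 in Western females. Its lowest and highest arrays were the same as for Dclk1. Avil, which encodes the actin-bundling protein advillin, measured -2.87 and -2.85 in Control males, -2.48 and -1.96 in Control females, -2.54 and -1.79 in Western males, and -2.79 and -2.90 in Western females.

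Among the enzymes of lipid mediators, Alox5, the 5-lipoxygenase that starts leukotriene synthesis, measured -1.61 and -1.54 in Control males, -1.02 and -0.92 in Control females, -1.86 and -0.13 in Western males, and -0.88 and -1.35 in Western females. The 2 Western males again held its lowest and highest values. Hpgds, the hematopoietic prostaglandin D synthase, was well above background only on Control male 1 (-5.31), Control female 2 (-4.84) and Western male 2 (-4.51), and its other 5 values, -7.86 to -5.93, were not. Il25 was well above background on Control female 2 (-1.07) and Western female 2 (-4.85). Its other 6 values, -7.62 to -5.73, were not, so its level on those arrays is only bounded.

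**Figure D1:**
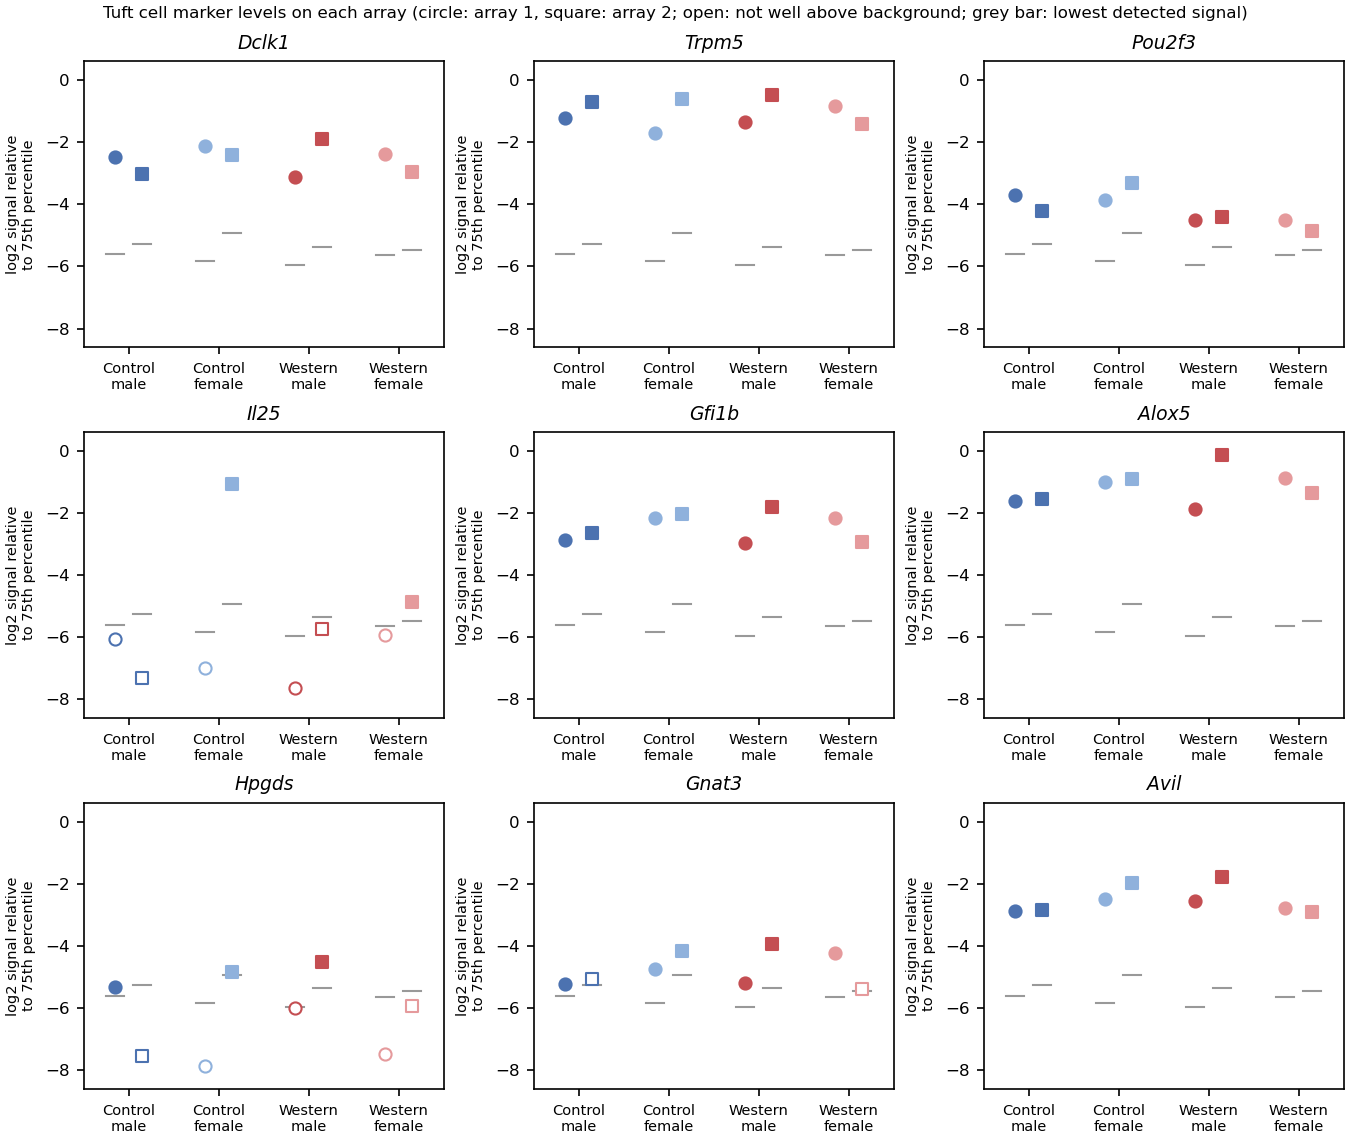
Level of each of the 9 tuft cell markers (log2 of the processed signal minus the array's 75th percentile, vertical axis) in the 4 groups of 2 arrays each, with filled points for arrays on which the probe was well above background and open points for the others. The Western male arrays hold both the lowest and the highest Dclk1, Gfi1b and Alox5 values, and Il25 stands at -1.07 on Control female 2 against -4.85 and below elsewhere.

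The comparison of the diets asks whether the Western diet shifts these markers in Min mice, with 4 arrays a diet. By limma over 21307 genes, with both sexes weighted equally, 0 of the 9 markers passed a Benjamini-Hochberg adjusted p of 0.05, and 0% of all genes did. At an unadjusted p under 0.05 there was 1 marker, Pou2f3, against 4.27% of all genes, or 3.62% in the direction of Pou2f3, lower on the Western diet. Without the library labelled Control female 1, Control female 2 was the only Control female array. The log2 diet difference was then -0.93 for Pou2f3 and -2.17 for Il25. Control female 2 was the highest array for 32.1% of all genes. Over the 9 markers, 5 differences were above 0 and 4 below, with a median log2 difference of 0.04, Western minus control. The median over all genes was -0.06, and 59.5% of all genes were below 0.

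Pou2f3 had the one diet difference that exceeded its spread before adjustment. It measured -3.71 and -4.21 in Control males, -3.86 and -3.32 in Control females, -4.51 and -4.42 in Western males, and -4.49 and -4.87 in Western females. All 4 Western arrays lay below all 4 control arrays, a separation that 3.16% of all genes showed. With the Western arrays lower it was shown by 2.29% of all genes. The means were -4.57 ± 0.20 (SD, n = 4) on the Western diet and -3.78 ± 0.37 (SD, n = 4) on the control diet. The difference was -0.80 ± 0.21 (log2, SE; 95% interval -1.31 to -0.28), a 1.74-fold lower mean, with an adjusted p of 0.995 by limma (0.0091 unadjusted). It was -0.93 without the library labelled Control female 1 and -0.66 without Control female 2, with 1 Control female array left in each case.

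The size of the Pou2f3 difference moved with the scaling. After quantile normalization it was -0.27 with an unadjusted limma p of 0.371, and after normexp background correction -0.38 with 0.043. Pou2f3 lies among the lowest 25% of genes by mean level, which also hold Il25, Hpgds and Gnat3. The median diet difference of those genes was -0.45 in the scaling used here and 0.14 after quantile normalization. Of them, 9.47% were lower on the Western diet at an unadjusted limma p under 0.05. All 4 Western arrays lay below all 4 control arrays for 4.38% of them, against 2.29% of all genes. In the highest 25% the median diet difference was 0.03. The part of this level-dependent shift in the Pou2f3 value was not tested. With arrays centred on the epithelial markers the difference was -0.77. On the slide that held 1 array of each group it was -0.72, with the library labelled Control female 1 as the Control female array.

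**Figure D2:**
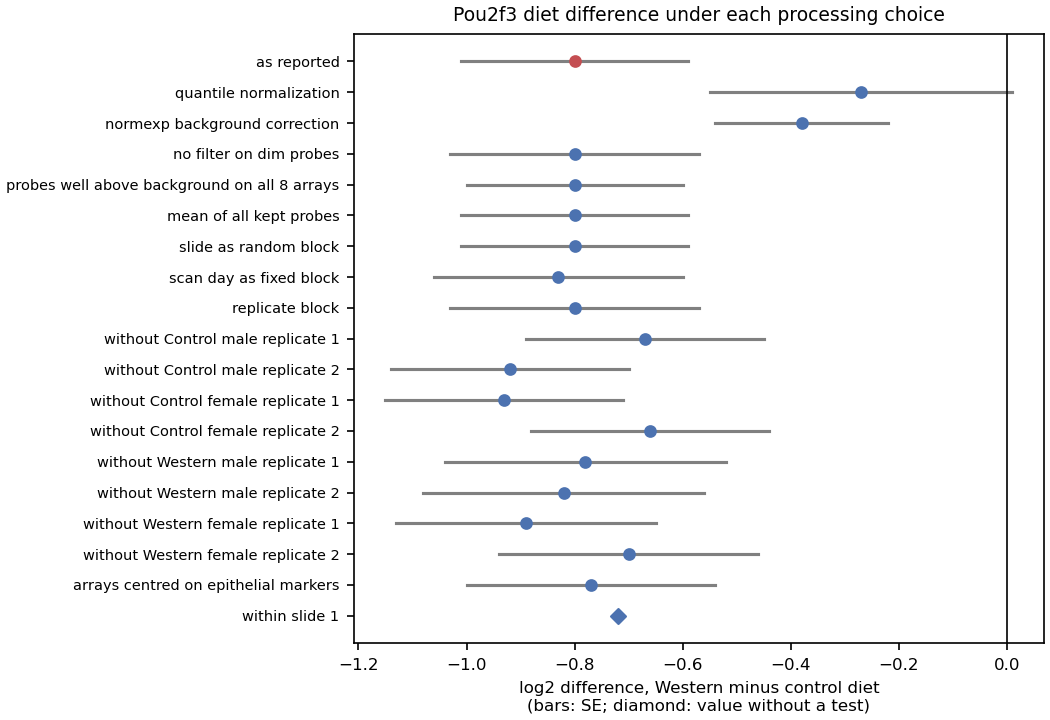
Diet difference of Pou2f3 (log2, Western minus control diet, horizontal axis) under each processing setting (vertical axis), with bars for the standard error and a diamond for the value within 1 slide, which has no test. All settings give values below 0, and quantile normalization (-0.27) and normexp (-0.38) lie closest to 0.

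The other 8 diet differences were smaller than their standard errors. Trpm5 differed by 0.05 ± 0.35 (log2, SE; 95% interval -0.80 to 0.90) and Gnat3 by 0.12 ± 0.39. Dclk1 differed by -0.07 ± 0.33 (95% interval -0.86 to 0.73), Gfi1b by -0.05 ± 0.32 and Avil by 0.04 ± 0.22. Alox5 differed by 0.22 ± 0.39, Hpgds by 0.40 ± 0.89 and Il25 by -0.69 ± 1.32. The intervals of these 8 differences leave room for changes in both directions, from Avil at -0.51 to 0.59 up to Il25 at -3.91 to 2.53. Alox5 turned to -0.21 without Western male 2 and was 0.65 without Western male 1. Il25 was -2.17 without the library labelled Control female 1. Several signs also turned with the scaling. Dclk1 (0.19) and Gfi1b (0.14) were above 0 after quantile normalization, and Gnat3 (-0.12), Hpgds (-0.11) and Avil (-0.03) below 0 after normexp.

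**Figure D3:**
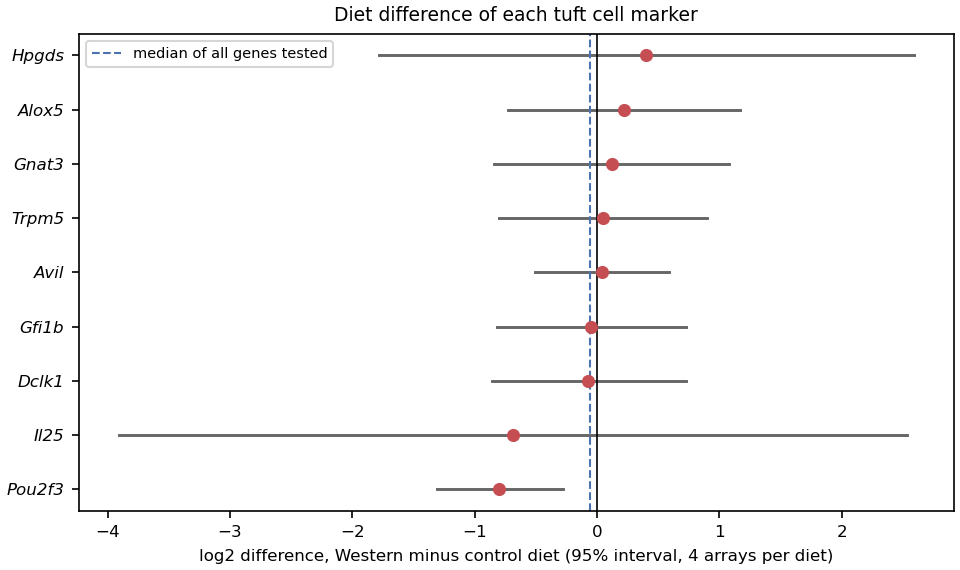
Diet difference of each tuft cell marker (points, log2, Western minus control diet, horizontal axis) with its 95% interval (bars) from 4 arrays a diet, and the median of all genes tested as a dashed line. Pou2f3, at -0.80, is the only member whose interval lies to one side of 0, before any adjustment for the number of genes.

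The 3 Dclk1 probes did not show the same array pattern. The second probe measured -4.25 and -5.03 in Control males, -3.70 and -2.49 in Control females, -4.60 and -4.81 in Western males, and -4.61 and -4.46 in Western females. It was highest on Control female 2 and not on Western male 2, where the brightest probe was highest. The third, well above background on 6 arrays, measured -3.50 on Control female 2, its highest array, and -5.63 to -4.17 elsewhere. Their diet differences were -0.75 ± 0.32 and -0.63 ± 0.45 (log2, SE; limma adjusted p = 0.989 for both, with 0.0577 and 0.21 unadjusted), against -0.07 ± 0.33 for the brightest. Which transcripts each probe reads was not tested.

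Within males, 0 of 9 markers passed the adjusted threshold (0% of all genes) and 0 had an unadjusted limma p under 0.05 (1.3% of all genes). Of the 9, 7 were higher on the Western diet, with a median log2 difference of 0.37, beside 51.3% of all genes that were lower. Without Western male 2, only Hpgds (0.41) and Avil (0.33) of the 9 were higher. Avil was higher in both Western males than in both Control males, by 0.70 ± 0.32, and Pou2f3 lower, by -0.50 ± 0.30. Such a separation of 2 arrays from 2 was found for 25.1% of all genes. Within females, 0 of 9 passed (0% of all genes) and 1 had an unadjusted p under 0.05 (5.1% of all genes). That gene was Pou2f3, at -1.09 ± 0.30 (adjusted p = 0.954 by limma). Without the library labelled Control female 1, Control female 2 alone stood for its group. Pou2f3 was then -1.36, Avil -0.89 against -0.63, Il25 -4.33 against -1.38 and Hpgds -1.87 against -0.36. These values rest on that array, where Il25 was -1.07, against -4.85 or lower on every other array. With all 8 arrays, 8 of the 9 were lower in females on the Western diet. Their median was -0.38, beside 63.2% of all genes that were lower. Pou2f3 and Avil (-0.63 ± 0.32) separated the 2 diets in females, as did 31.4% of all genes.

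The diet difference in females minus that in males was below 0 for all 9 markers, with a median of -0.84, and below 0 for 65.1% of all genes. None of the 9 passed the adjusted threshold (0% of all genes). Avil had an unadjusted limma p of 0.0258 (adjusted p = 1), with a difference of -1.32 ± 0.45, and 1.62% of all genes had one under 0.05. These values share the library labelled Control female 1 and the male pair with the widest gap. Between the sexes, 0 of 9 markers passed either with both diets (0% of all genes, 0 against 3.85% at an unadjusted p and 0 against 3% with non-overlapping arrays) or on the Western diet alone (0% of all genes, and 0 against 1.32%). The latter compares no doubtful library, but its error is estimated over all 8 arrays. Without the library labelled Control female 1, 2 genes passed on the Western diet and 3 with both diets. On the Western diet both female Avil values lay below both male ones, by -0.68 ± 0.32, a separation 25.6% of all genes showed. Il25 was well above background on 1 of 2 Western female and 0 of 2 Western male arrays, and Hpgds on 0 of 2 and 1 of 2. The measured values of both genes overlapped between the sexes, and no fold is given.

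In Western males the 2 arrays of the group differed by more than the diets did for 8 of the 9 markers. Western male 2 exceeded Western male 1 for all 9, by a median of 1.21 (log2), which is a difference between 2 arrays of one group and carries no test. Over all genes the median of that gap was 0.05, and 54.6% were higher on Western male 2. A gap of at least 1 was found for 6 of the 9 markers and for 2.83% of all genes. The gap was 1.74 for Alox5, 1.26 for Gnat3, 1.21 for Dclk1, 1.15 for Gfi1b, 0.84 for Trpm5 and 0.74 for Avil. Pou2f3 was the exception at 0.08. Hpgds (1.50) was measured on 1 of these 2 arrays and Il25 (1.89) on neither. The 2 arrays lay on different slides. Western male 2 was the only array on its slide, so what is particular to it cannot be told apart from the slide. In the other groups the median gap, second array minus first, was 0.03 in Control males, 0.54 in Control females and -0.47 in Western females. There the first arrays lay on slide 1 and the second on slide 3, scanned on the other day, so array and slide cannot be told apart.

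**Figure D4:**
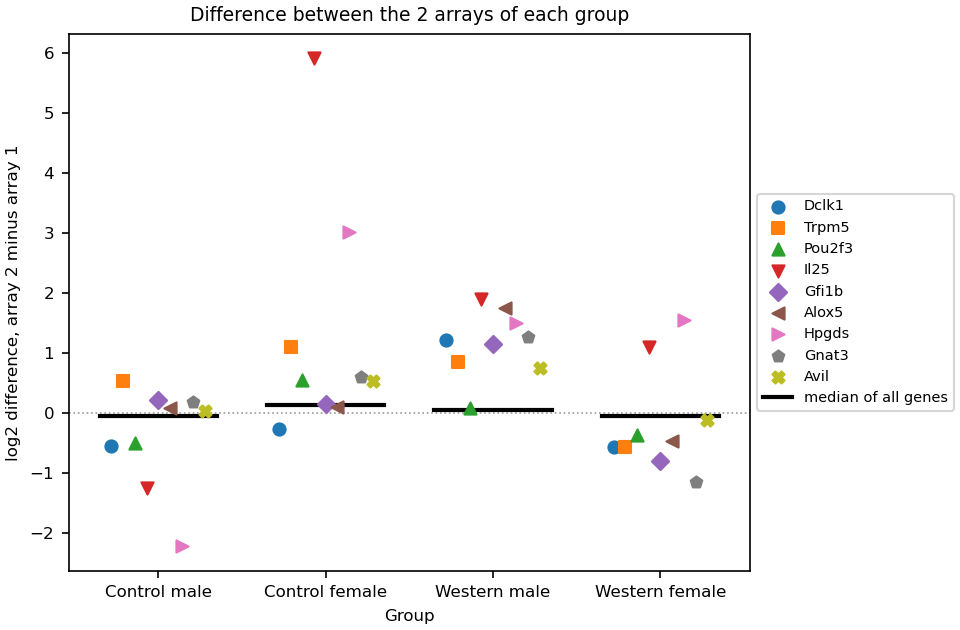
Second minus first array of each group (log2, vertical axis) for the 9 tuft cell markers, with the median of all genes for comparison. In Western males all 9 members lie above 0, with a median of 1.21 against 0.05 for all genes.

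The gap between the Western males was also seen in other genes of tuft cells. Of 12 taste-signalling genes 11 were higher on Western male 2 (median 0.40), of 6 genes for eicosanoid and acetylcholine synthesis 5 (median 0.82), and of 24 lineage and structural genes 23 (median 0.44). The succinate receptor Sucnr1 was higher by 1.88, the gustducin-associated gamma subunit Gng13 by 1.23 and leukotriene C4 synthase Ltc4s by 1.21. These 3 were picked after their values were seen. Of 12 epithelial markers 10 were higher, by a median of 0.10, and of 12 enteroendocrine markers 10, by a median of 0.34. Markers of several other cell types were mostly lower there, though 6 of 9 markers of neurons and glia were higher (median 0.12). All 10 smooth muscle markers but 3 were lower on Western male 2 (median -1.49), as were 8 of 9 fibroblast markers (median -1.24), 7 of 7 erythroid markers (median -1.84) and 8 of 10 macrophage markers (median -0.24). Of 7 eosinophil and neutrophil markers 4 were higher, with a median of 0.01. The part of tissue make-up in the gap was not tested.

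Genes whose pattern over the 8 arrays lay closest to a marker were found by the root mean square difference of the centred log2 values, among 12392 genes well above background on every array. For Dclk1 the nearest were Il17rb (0.147), a subunit of the Il25 receptor, Bmx (0.162), a Tec-family tyrosine kinase, and Tram2 (0.166). For Alox5 they were Rgs13 (0.117), a regulator of G-protein signalling, Siglecf (0.125), a sialic acid-binding lectin also used to mark eosinophils, and Gm4952 (0.160). For Gfi1b they were Matk (0.130), a tyrosine kinase, Rflna (0.134) and Gm5478 (0.164). Il17rb, Bmx, Rgs13 and Matk, 4 of the 18 nearest genes of the 6 markers, were on the lists of tuft cell genes drawn up beside the markers. All 4 were nearest to Dclk1, Alox5 or Gfi1b, and the nearest genes of Trpm5, Pou2f3 and Avil were not on those lists. Of the 12392 genes compared, 11 were on the taste-signalling list, 6 on the synthesis list and 24 on the lineage and structural list.

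For Trpm5 the nearest were Cd55b (0.102), Tbc1d8b (0.149) and B3gnt2 (0.158), and for Avil Asic5 (0.173) and Zfp182 (0.190) were among the 3 nearest. The patterns of Pou2f3 and Trpm5 lay farther from the other markers than those of Dclk1, Gfi1b, Alox5 and Avil lay from each other. The differences were 0.508 to 0.686 for Pou2f3 and 0.404 to 0.584 for Trpm5, against 0.220 to 0.359 among those 4. The nearest genes to Pou2f3 were Mmp17 (0.124), Lepr (0.134) and Actl7b (0.141), each highest on Control female 2. Among the markers themselves, Gfi1b was the 13th nearest of all genes to Alox5 (0.220), while Pou2f3 ranked from 8030th to 10016th in nearness to the others. These are descriptions over 8 arrays that share hybridisation and scaling.

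**Figure D5:**
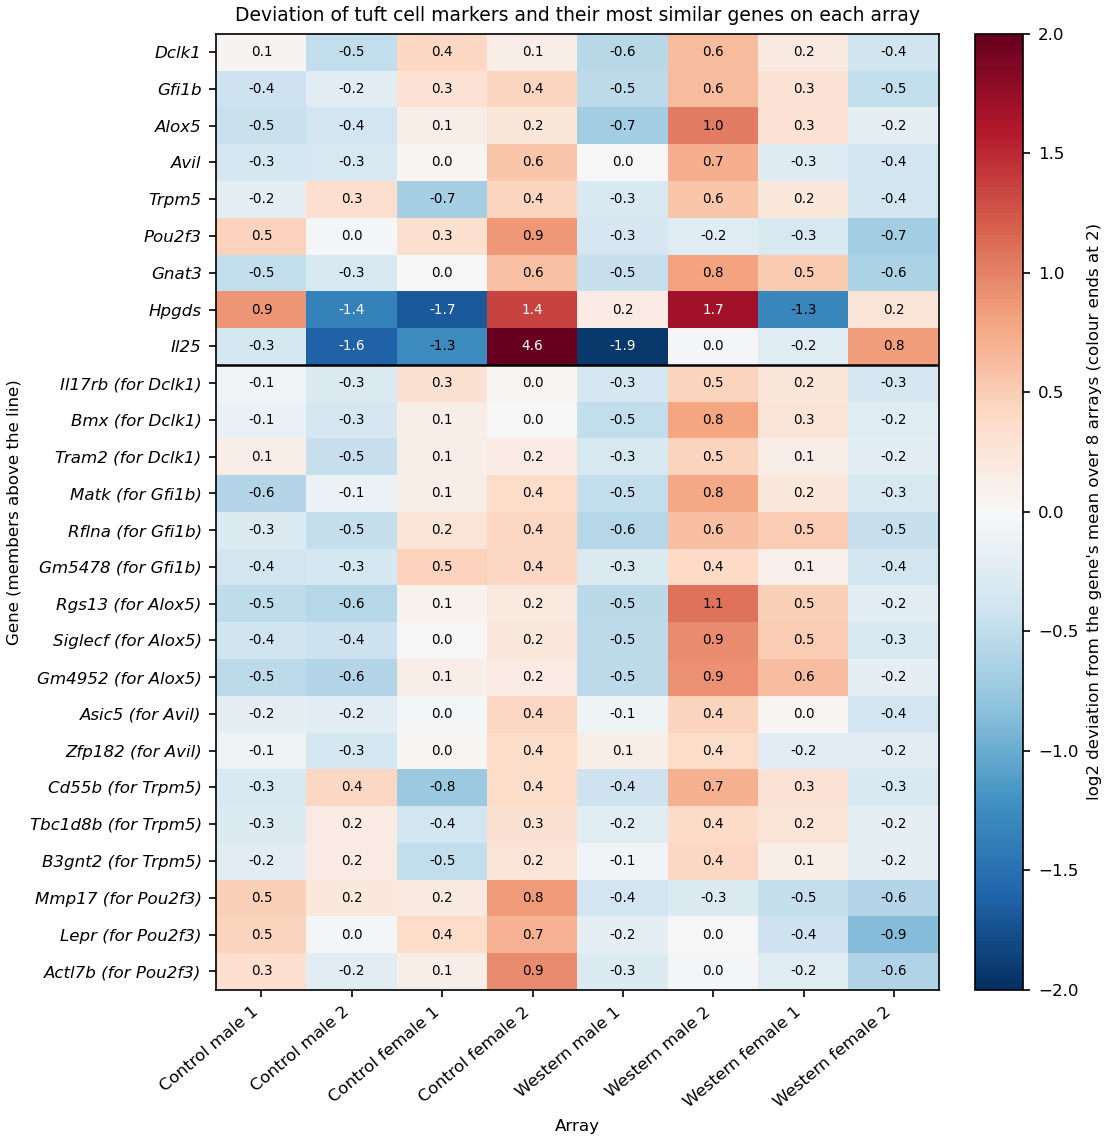
Deviation of each gene from its own mean over the 8 arrays (log2, colour and printed value), for the 9 tuft cell markers above the line and up to 3 of the nearest genes of each of 6 markers below it. Western male 2 is high for Dclk1, Gfi1b, Alox5, Avil, Trpm5 and Gnat3, and for the genes shown as nearest to the first 5 of these, while Pou2f3 and its nearest genes are highest on Control female 2.

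Control female 2 held the highest Il25, 3.79 (log2) above the next array. Of all 21290 genes compared, 56, or 0.263%, stood at least that far above the next array there. Control female 2 was also the highest array for 32.1% of all genes, against 8.53% for Western male 2. For Pou2f3, whose highest array it was too, the diet difference without it was -0.66.

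The other tuft cell genes were compared between the diets in the same fit, and none of the 42 tested passed the adjusted threshold. Of 12 taste-signalling genes, 4 were higher and 8 lower on the Western diet, with a median of -0.06. The taste receptor subunit Tas1r3 measured -1.88 and -1.89 in Control males, -2.12 and -1.59 in Control females, -2.39 and -2.23 in Western males, and -2.31 and -2.35 in Western females. All its Western values lay below its control values, by -0.45 ± 0.17 (log2, SE; limma adjusted p = 0.995, with 0.0371 unadjusted). Itpr3, an inositol trisphosphate receptor, was also separated, by -0.28 ± 0.17, but its 95% interval of -0.69 to 0.13 covers both directions. These 2 of the 12 genes were separated with the Western arrays lower, as were 2.29% of all genes. Of 6 synthesis genes 4 were higher (median 0.18), with Alox5ap, which presents arachidonate to Alox5, at 0.29 ± 0.26. Of 24 lineage and structural genes 18 were higher (median 0.11).

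Downstream of Il25, 14 of 19 genes with a probe were tested, and the probes for Il4, Il5, Il9 and Il13 were not among those kept. Of the 14, 6 were higher and 8 lower (median -0.05), and 0 passed. Areg, an epidermal growth factor receptor ligand, differed by -0.68 ± 0.45. Il1rl1, the Il33 receptor, differed by 1.38 ± 0.95 and was well above background on 6 arrays.

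Markers of other cells that share genes with tuft cells were read beside these values. Mast cells also express Hpgds and Alox5, and their markers differed by a median of 0.99 over 10 genes, with 1 lower and 2 higher at an unadjusted limma p under 0.05 and 0 past the adjusted threshold (4.27% and 0% of all genes). Their summed linear signal was 0.785 to 1.67 on control and 1.21 to 4.43 on Western arrays, and 5 of the 10 were well above background on all arrays. Macrophages, which also express Alox5, had a median of 0.08 over 10 markers, 9 of them well above background throughout. Their sums were 43.5 to 64.9 and 41.1 to 57.0, of which Itgam, at 4.79 to 5.85 (log2), was the largest part on every array. Erythroid cells and platelets, whose precursors express Gfi1b, had medians of 1.38 over 7 and 0.50 over 5 markers, with sums of 17.0 to 75.2 and 54.6 to 155 for the erythroid list. Of the 7 erythroid markers 5 were higher at an unadjusted limma p under 0.05, beside 4.27% of all genes in either direction. Of the 5 platelet markers 0 were, and 0 of either list passed the adjusted threshold (0% of all genes). None of the 7 erythroid markers separated the diets. The lowest erythroid sums were those of the library labelled Control female 1 (17.3) and of Control female 2 (17.0). The summed signal of the 9 tuft cell markers was 1.35 to 2.54 on control and 1.18 to 2.64 on Western arrays. The part of these cells in the values of Alox5, Hpgds and Gfi1b was not tested.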

How the data were processed

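The authors deposited one-colour Agilent Feature Extraction files, whose processed signal is a background-corrected intensity per spot (version 10.7.3.1, design 026655, build mm9, per the file headers). Control spots (1377) and spots flagged as outliers (94 to 216 an array) were left out, repeats of a probe were averaged, and log2 intensity was taken minus each array's 75th percentile over all non-control spots (486.3 to 901.8). Accessions were matched to RefSeq symbols (GRCm38.p6) for 26412 of 39429 probes. A probe was kept if at least 2 arrays had it well above background (25737 probes), and the brightest stood for its gene, 21307 genes in all. limma 3.58.1 (R 4.3.3) fitted a group-means model over 8 arrays, with 4 residual and 2.01 prior degrees of freedom, Benjamini-Hochberg adjustment over all genes and a threshold of 0.05. The method was tested on simulated data with independent noise. The simulated diet shifts exceeded every marker's diet difference over all 8 arrays, so shifts of the markers' size were not tried. Alternatives were quantile normalization, normexp (offset 50, on the median and background columns), probe filters, slide, scan day and replicate number as blocks, and each array left out; fitting each probe alone and centring on epithelial markers were chosen after the data were seen. No array had a saturated spot among those used.

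All 9 members were named, with up to 4 genes of each other list by smallest p for diet and the 3 nearest genes of each marker detected on all arrays, some of which are not reported here. The members and lists were chosen with earlier results of these data known. Nothing says that the 2 arrays of a group came from separate animals' RNA throughout, so a p-value reflects just the scatter of the arrays at hand, some of which may be technical, and their number limits the precision. The arrays lay on 3 slides scanned on 2 days, with 4, 1 and 3 arrays a slide, and Western male 2 was alone on the second.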

Additional observations from a re-analysis of the deposited data

How the results depend on the processing

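With 2 arrays a group, wide intervals limit what can be seen, and Il25, Hpgds and Gnat3 are near or below background on several arrays. No setting brought a marker past the adjusted threshold for diet. With an array left out, the lone array of its group is assumed to vary like the other groups. Over single arrays left out, the number of genes past it ranged from 0 to 1 for diet, 0 to 2 in females, 0 to 2 for diet by sex, 0 to 3 for sex and 0 to 3 for sex on the Western diet, the higher numbers coming without Control female 2 (1, 2, 1 and 3 for diet, females, diet by sex and sex on the Western diet) or the library labelled Control female 1 (2 for diet by sex, 3 for sex, 2 for sex on the Western diet). Without both Control female arrays, 3 genes passed for sex on the Western diet. Pou2f3 stayed below 0 for diet under all settings run.

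Signs of small differences turned as follows, and the cause was not tested. After quantile normalization, Dclk1 was 0.19 for diet and 0.04 in females, Gfi1b 0.14 for diet, Il25 0.51 in males, Hpgds 0.94 and Gnat3 0.90 in females. After normexp, Hpgds was -0.11 for diet and -0.02 in males, Gnat3 -0.12 and -0.07, and Avil -0.03 for diet. With all kept probes averaged, Dclk1 was -0.02 in males, while it kept its sign at -0.48 for diet and -0.95 in females. With scan day as a block, Il25 was 0.95 in males. Within slide 1, values were -0.63 for Dclk1, -0.10 for Trpm5, -0.10 for Gfi1b, -0.25 for Alox5 and -0.70 for Hpgds in males, 1.03 for Il25, 0.01 for Gfi1b, 0.14 for Alox5, 0.38 for Hpgds and 0.53 for Gnat3 in females, and -0.05 for Alox5 and -0.16 for Hpgds over both. The slide 1 values in females and over both use the library labelled Control female 1. Within slide 3, Trpm5 was -0.80 in females.

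With single arrays left out, diet differences ranged from -0.37 to 0.24 for Dclk1, -0.23 to 0.32 for Trpm5, -0.33 to 0.24 for Gfi1b, -0.21 to 0.65 for Alox5, -0.35 to 1.16 for Hpgds, -0.20 to 0.43 for Gnat3 and -0.15 to 0.22 for Avil. In males they ranged from -0.35 to 0.86 for Dclk1, -0.36 to 0.48 for Trpm5, -0.95 to 0.94 for Il25, -0.20 to 0.95 for Gfi1b, -0.29 to 1.45 for Alox5 and -0.05 to 1.21 for Gnat3. In females they ranged from -0.51 to 0.58 for Trpm5, -0.38 to 0.09 for Alox5, -1.87 to 1.15 for Hpgds and -0.93 to 0.24 for Gnat3. Without Western male 2, 9 of 27 marker differences changed sign.

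The share of genes higher among those with an unadjusted p under 0.05 for diet was 15.2%, 60.3% after quantile normalization and 27.6% after normexp, and the median of all genes moved from -0.06 to 0.05 after quantile normalization. With the replicate number as a block, 0 genes passed in any comparison and Pou2f3 stood at -0.80 (adjusted p = 0.984 by limma). The block changed no call. All first arrays lay on slide 1 and all second arrays on the other slides, so this block cannot be told apart from slide 1 against the rest. Same-numbered arrays correlated at -0.118 to 0.352 in their deviations, so the numbers were not taken to pair arrays.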
